A study of Mus musculus with 6 samples.

Results

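The respiratory chain is built from many small proteins encoded in the nucleus, and 86 of the 12393 genes measured here encode them or help to assemble them. The members were taken by symbol: genes starting with Ndufa, Ndufb, Ndufc, Ndufs, Ndufv, Uqcr, Cox4 to Cox8 or Atp5, with Sdha, Sdhb, Sdhc, Sdhd, Cyc1 and Cycs. They were named by 160 probe sets that point to 1 gene alone, of which the brightest was kept for each gene. By complex, 33 were subunits of complex I, 4 of complex II, 9 of complex III, 10 of complex IV and 17 of complex V, and 1 was cytochrome c itself (Cycs). Ndufa4, long listed under complex I, was counted with complex IV. These 74 are called the subunits present in most cells. Apart from them stood 3 complex IV isoforms of striated muscle (Cox6a2, Cox7a1 and Cox8b), 3 complex IV isoforms restricted to other tissues (Cox4i2, Cox6b2 and Cox8c) and 6 assembly factors (Ndufaf1, Ndufaf3, Ndufaf4, Ndufaf5, Ndufaf7 and Cox7a2l).

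Complexes I and II pass electrons from NADH and succinate to ubiquinone, complex III passes them on to cytochrome c, and complex IV delivers them to oxygen. Complexes I, III and IV pump protons as they do so, and complex V, the ATP synthase, uses the proton gradient to make ATP. Heart and skeletal muscle fit complex IV with their own versions of some small subunits, which take the place of the versions found in other cells, and mouse skin carries a sheet of striated muscle, the panniculus carnosus, beneath it.

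The samples were skin of C57BL/6 mice, the strain given for every array, with no genotype, sex or age in the labels. A subcutaneous pump released its agent for 7 days. Skin over the pump outlet was taken after PBS, the vehicle (PBS local), interleukin-13 (IL-13), thymic stromal lymphopoietin (TSLP) or transforming growth factor beta (TGF-beta), and skin of the abdomen, away from the outlet, after PBS (PBS distal). IL-13 and TSLP are cytokines of allergic inflammation and TGF-beta is a cytokine of tissue repair and fibrosis. No dose is given, every mouse carried a pump, and the labels do not say whether both PBS samples came from 1 mouse. TGF-beta had 2 mice with 1 array each, and the other 4 groups had 1 array each, so precision is limited by how few arrays there were, and no comparison without TGF-beta has a replicate.

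The values were the authors' Affymetrix signals, in arbitrary units, and differences are given as log2(signal + 27.4), where 27.4 is the 25th percentile of all signals. A gene entered a comparison when a compared array reached a signal of 165, the median of all signals. On at least 1 array 83 of the 86 genes did, with Cox4i2 (21.0 to 36.5), Cox8c (96.3 to 141) and Ndufb1 (115 to 163) below it on every array. Keratinocyte markers were bright on all 6 arrays, with a summed signal of 47469 to 71784 over 9 genes, and so were 20 adult skeletal muscle markers, with a summed signal of 131586 to 191263. The hair follicle list stood apart on the array of TGF-beta mouse 2, at a summed signal of 42521 against 413 to 2968 elsewhere. In whole skin, fewer cells of a type and less RNA per cell cannot be told apart.

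The promoters of the muscle isoforms and of their partners are shown because the values of these genes went separate ways. RefSeq windows from 250 bases before to 50 bases after the start (build GRCm38.p6) were available for 71 of the 86 genes, as 76 promoters. Cox7a1 lies at chr7:30183921-30184220, plus strand, and Cox8b at chr7:140900397-140900696, minus strand. The partner subunit Cox7a2 lies at chr9:79759804-79760103, minus strand. The partners Cox6a1 and Cox8a lie at chr5:115348909-115349208, minus strand, and chr19:7217567-7217866, minus strand. Cox6a2 is not shown. Capitals mark the motifs found, each searched on both strands: the NRF1 core GCGCATGC, the ETS core CCGGAAG, the ERR half-site AAGGTCA, the YY1 core AAGATGGC, the E-box CAGCTG, the TATA box TATAAA, and the MEF2 consensus.
Cox7a1: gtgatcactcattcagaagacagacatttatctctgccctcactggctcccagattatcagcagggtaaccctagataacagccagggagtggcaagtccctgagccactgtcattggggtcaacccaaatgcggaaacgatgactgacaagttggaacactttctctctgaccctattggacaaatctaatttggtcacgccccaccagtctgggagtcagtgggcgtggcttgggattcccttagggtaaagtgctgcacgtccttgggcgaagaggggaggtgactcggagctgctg
Cox8b: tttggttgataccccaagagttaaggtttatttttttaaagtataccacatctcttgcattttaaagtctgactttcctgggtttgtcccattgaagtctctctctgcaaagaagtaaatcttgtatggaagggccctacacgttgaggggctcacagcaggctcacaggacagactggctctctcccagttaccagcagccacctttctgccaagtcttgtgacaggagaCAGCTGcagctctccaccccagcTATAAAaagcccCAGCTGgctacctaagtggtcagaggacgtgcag
Cox7a2: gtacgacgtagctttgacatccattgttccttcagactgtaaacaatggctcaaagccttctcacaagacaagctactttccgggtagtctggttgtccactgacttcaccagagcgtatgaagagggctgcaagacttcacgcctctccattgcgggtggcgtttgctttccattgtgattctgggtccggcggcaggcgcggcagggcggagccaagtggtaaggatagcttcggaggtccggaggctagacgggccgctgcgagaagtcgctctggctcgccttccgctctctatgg
Cox6a1: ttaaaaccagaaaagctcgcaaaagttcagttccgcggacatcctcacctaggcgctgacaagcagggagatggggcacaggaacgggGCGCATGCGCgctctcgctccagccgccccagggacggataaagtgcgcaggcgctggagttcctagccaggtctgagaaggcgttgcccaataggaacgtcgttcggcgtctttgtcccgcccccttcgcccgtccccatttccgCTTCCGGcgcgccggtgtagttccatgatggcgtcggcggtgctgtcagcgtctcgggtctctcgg
Cox8a: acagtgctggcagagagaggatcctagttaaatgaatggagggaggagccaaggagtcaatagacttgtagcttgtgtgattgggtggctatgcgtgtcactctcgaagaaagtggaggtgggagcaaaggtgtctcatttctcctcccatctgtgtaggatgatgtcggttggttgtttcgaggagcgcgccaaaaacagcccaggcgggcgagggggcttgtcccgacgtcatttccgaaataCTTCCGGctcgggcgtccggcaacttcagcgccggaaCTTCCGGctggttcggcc

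The Cox6a1 window held a pair of overlapping NRF1 cores that begin 162 and 160 bases before the start, and an ETS core 16 bases before it. Cox8a held an ETS core 5 bases before the start and another at position 33 after it. Cox8b held the E-box 19 bases before the start and again at position 17 after it, with the TATA letters between them at position 5. Cox7a1 and its partner Cox7a2 held none of the letters searched, so the motifs did not divide the isoforms from their partners in every pair. Among the 67 promoters of the subunits present in most cells, the NRF1 core occurred in 14.9%, against 2.71% of all 32851 promoters of the same length. The ETS core occurred in 25.4% against 8.86%, the YY1 core in 13.4% against 2.75% and the ERR half-site in 10.4% against 4.72%. The E-box occurred in 7.46% against 16.3%, the TATA box in 10.4% against 13.6%, and the MEF2 consensus in 0% against 3.19%. The E-box and the TATA box were added to the search after these sequences had been read.

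The muscle isoforms varied most. Cox7a1, Cox8b and Cox6a2 had the 3 widest ranges over the 6 arrays among the members, 1.77, 1.31 and 1.00 on the log2 scale, where the median range of the 73 subunits present in most cells that passed the filter was 0.33 and that of all genes was 0.50. All 3 were lowest on the IL-13 array and on that of TGF-beta mouse 2.

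Cox6a2, the muscle form of subunit VIa, gave a signal of 4152 in PBS local, 3543 in PBS distal, 2335 with IL-13, 3645 with TSLP, and 3361 and 2066 in TGF-beta mice 1 and 2. PBS local was its highest array. Cox7a1, the muscle form of subunit VIIa, gave 633 in PBS local, 1233 in PBS distal, 343 with IL-13, 1111 with TSLP, and 635 and 351 in the TGF-beta mice. Its distal and TSLP values lay together, well above the other 4 arrays. Cox8b, the muscle form of subunit VIII, gave 2136 in PBS local, 2863 in PBS distal, 1224 with IL-13, 2919 with TSLP, and 1998 and 1165 in the TGF-beta mice. For each of the 3 genes PBS local lay between the values of the TGF-beta mice or above both, while IL-13 lay far below PBS local.

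Each of the 3 genes was read by 1 probe set. Against PBS local, IL-13 gave -0.82 for Cox6a2, -0.83 for Cox7a1 and -0.79 for Cox8b, so that 3 of 3 were at least 1.5-fold lower, beside 3.99% of all 7562 genes compared. They were the only members past that fold with IL-13: no member was at least 1.5-fold higher, beside 2.74% of all genes. In TGF-beta mouse 2 the differences were -0.998, -0.80 and -0.86, and in mouse 1 they were -0.30, 0.00 and -0.10. The mean difference over both mice was -0.65 for Cox6a2 (SE 0.33), -0.40 for Cox7a1 (SE 0.37) and -0.48 for Cox8b (SE 0.36), and none passed limma's moderated test (adjusted p = 0.864, 0.867 and 0.864). The mean over the 3 genes was -0.89 without mouse 1 and -0.13 without mouse 2, so that 1 mouse set most of it.

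TSLP and distal skin shared another order. With TSLP, Cox7a1 was 0.79 and Cox8b 0.45 above PBS local while Cox6a2 was 0.19 below it (-0.19). In distal skin Cox7a1 was 0.93 and Cox8b 0.42 above, and Cox6a2 was again lower, at -0.23. Both comparisons use the single PBS local array, which carries its own error into each. Against PBS distal instead, the mean of the 3 isoforms was -1.19 with IL-13, -0.88 with TGF-beta and -0.03 with TSLP.

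**Figure D1:**
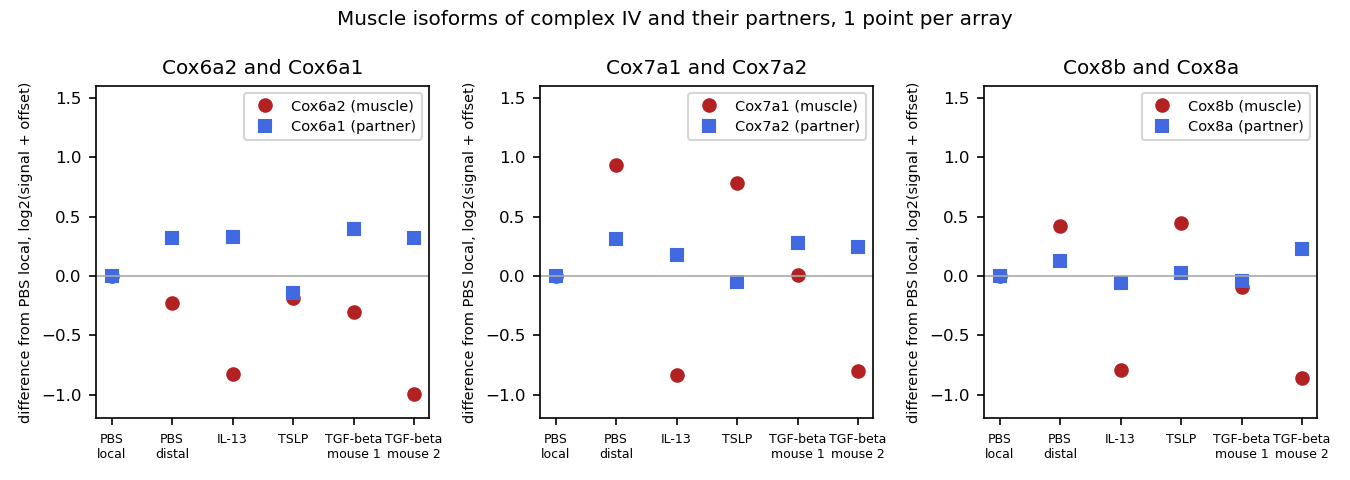
Difference from the PBS local array in log2(signal + offset) for the 3 muscle isoforms of complex IV (circles) and their partners in other cells (squares), 1 point per array and no error bars because each point is a single array. The circles lie near -0.8 with IL-13 and between -0.998 and -0.80 in TGF-beta mouse 2, where the squares lie between -0.06 and 0.33.

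The partner subunits did not share these low values. Cox6a1 gave a signal of 9038 in PBS local, 11271 in PBS distal, 11368 with IL-13, 8187 with TSLP, and 11897 and 11260 in the TGF-beta mice. On this probe set its IL-13 and TGF-beta arrays were high where those of Cox6a2 were low, and the gap between the 2 differences from PBS local was -1.15 with IL-13 and -1.31 in TGF-beta mouse 2. A further probe set of Cox6a1 gave 0.04 with IL-13 and 0.09 with TGF-beta, so the high values depend on the one kept, while neither was low. Cox7a2 gave 7376, 9163, 8323, 7134, 8939 and 8754 in the same order, with a gap between Cox7a1 and Cox7a2 of -1.01 with IL-13 and -1.05 in mouse 2. Cox8a gave 2764, 3012, 2649, 2807, 2688 and 3245, and the gap between Cox8b and Cox8a was -0.73 with IL-13 and -1.09 in mouse 2. With TSLP the same gaps were -0.04, 0.83 and 0.42.

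Markers of skeletal muscle moved with the muscle isoforms in part. The summed signal of the 20 adult muscle markers was 174890 in PBS local, 191263 in PBS distal, 145192 with IL-13, 146493 with TSLP, and 187428 and 131586 in the TGF-beta mice. It was lowest in TGF-beta mouse 2, as were Cox6a2 and Cox8b, while Cox7a1 was lowest with IL-13. Yet the sum was as low with TSLP as with IL-13, where the summed isoform signal was 7675 against 3903. By gene, TSLP gave a median of -0.24, with 17 of the 20 below 0, beside 51.3% of all genes. Of the 20, 1 was at least 1.5-fold lower with TSLP, beside 2.5%. With IL-13, 8 of the 20 markers were at least 1.5-fold lower, beside 3.99% of all genes, with a median of -0.44. The thin-filament gene Acta1 and the myosin light chain genes Myl1 and Mylpf were at 0.19, 0.05 and 0.04. Other thin-filament genes, Tnnc2, Tnni2 and Tnnt3, were at -0.03, -0.37 and -0.40. Casq1, the calcium-binding protein of the sarcoplasmic reticulum, was at -1.10 and Pygm, muscle glycogen phosphorylase, at -1.07. In TGF-beta mouse 2 these were -1.54 and -1.07, against 0.06, 0.00 and -0.16 for Acta1, Myl1 and Mylpf. Tnnc2, Tnni2 and Tnnt3 were at -0.17, -0.51 and -0.51 in that mouse. These marker genes were picked after their values were seen. The part of muscle content in the isoform values was not tested.

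Brown fat also makes Cox7a1 and Cox8b. Its defining gene Ucp1 had a signal of 1.88 to 7.31 on the 6 arrays, below the filter on each. The summed signal of the 7 brown adipocyte markers measured, of which 4 passed the filter, was 3839 in PBS local, 3166 in PBS distal, 2809 with IL-13, 3818 with TSLP, and 4010 and 2572 in the TGF-beta mice. The largest single part of that sum on every array was Fabp3, a fatty acid carrier that muscle makes as well, at 2299 in PBS local, 1368 with IL-13 and 1114 in mouse 2. The sum of 10 white adipocyte markers with IL-13 (42656) was close to that in PBS local (42968), but Car3 and Fabp4 carried most of it. Of the 9 adipocyte genes compared 7 were below PBS local with IL-13 (median -0.18), beside 60.2% of all genes. The lipid droplet genes Cidec, Lipe and Pnpla2 were at least 1.5-fold lower, at -1.002, -0.65 and -0.62, beside 3.99% of all genes. With TSLP 8 of 10 adipocyte genes were above PBS local (median 0.25), beside 48.7% of all genes. In distal skin 8 of 10 were above it (median 0.31), beside 48.2%. The medians in TGF-beta mice 1 and 2 were 0.09 and -0.19. Adipocyte markers thus moved with the isoforms in part, and their part in the result was not tested.

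**Figure D2:**
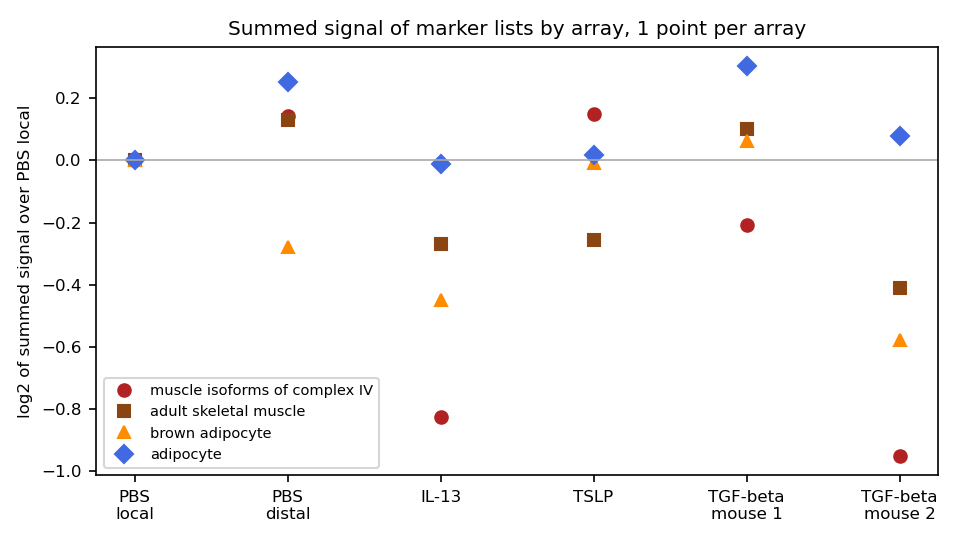
Log2 ratio of the summed signal of a marker list on each array to that on the PBS local array, for the 3 muscle isoforms (circles), 20 adult skeletal muscle genes (squares), 7 brown adipocyte genes (triangles) and 10 adipocyte genes (diamonds), 1 point per array. The muscle isoforms lie at -0.83 with IL-13 and -0.95 in TGF-beta mouse 2, below the muscle list at -0.27 and -0.41, and with TSLP the isoforms lie at 0.15 and the muscle list at -0.26.

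The subunits present in most cells differed little between arrays. Over the 6 arrays 5 of 73 ranged by at least 1.5-fold (6.85%), where 39.5% of all genes and 31.1% of the 1129 genes with a mean signal of at least 2000 did. The 5 were Atp5md, Ndufb2, Uqcrh, Ndufb6 and Cycs. With IL-13 the median difference from PBS local was -0.00, with 38 of 73 below 0, beside 60.2% of all genes (median -0.07) and 38.4% of the genes with a mean signal of at least 2000 (median 0.07). The subunits thus lay between these 2 backgrounds. With TSLP it was 0.01, with 34 below 0, beside 51.3% of all genes (median -0.01) and 61.8% of the bright genes (median -0.06). With TGF-beta it was 0.11, 0.14 in mouse 1 and 0.06 in mouse 2, and in distal skin 0.20, where the medians of all genes were -0.05 and -0.01 and those of the bright genes 0.06 and 0.07. None of the 73 was 1.5-fold away from PBS local with IL-13 or TSLP. Among all members 1 was with TSLP (Cox7a1, higher), beside 3.09% of all genes higher and 2.5% lower.

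**Figure D3:**
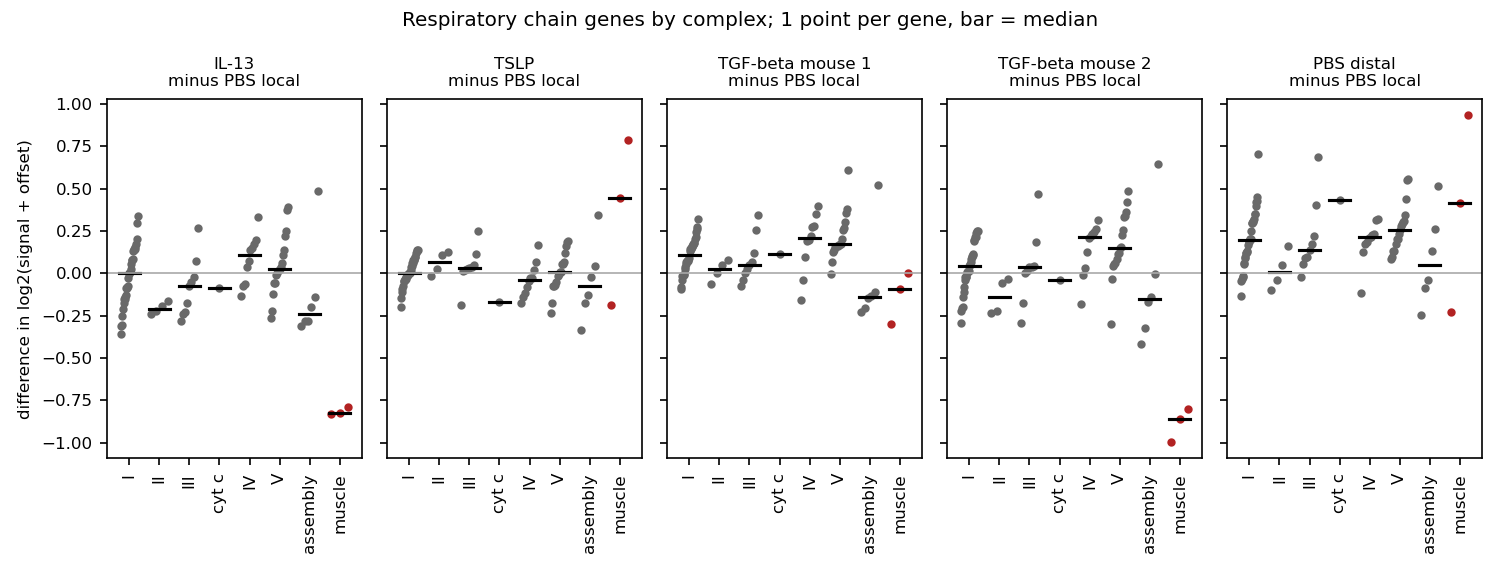
Difference from the PBS local array in log2(signal + offset) for each respiratory chain gene that passed the filter except Cox6b2, by complex, in 5 panels for the 5 other arrays. Points are genes, sorted by value within a complex, horizontal bars are medians over genes and not means of replicates, and red points are the 3 muscle isoforms. The subunits lie close to 0 with TSLP and mostly above 0 in distal skin, and the red points stand apart with IL-13 and in TGF-beta mouse 2.

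Distal skin had the highest values for most subunits, though not for most of those read by plain probe sets. Of the 73 subunits, 64 were above PBS local in PBS distal, beside 48.2% of all genes and 60.2% of those with a mean signal of at least 2000, a class that holds 68 of the 73. In PBS distal 44 were above all 5 outlet arrays. Over all 83 members the count was 47 (56.6%), beside 26.8% of all genes and 29.0% of the genes with a mean signal of at least 2000. Of the 44 subunits, 11 were among the 26 read by plain probe sets (42.3%). The other 33 were among the 47 read by probe sets that may share sequence with other transcripts (70.2%). No member lay below all 5 outlet arrays, beside 24.9% of all genes. The differences were small: 3 members were at least 1.5-fold higher than in PBS local, beside 5.15% of all genes, and none was 1.5-fold lower, beside 9.18%. The 3 were Cox7a1, Ndufb2 and Uqcrh.

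Ndufb2, an accessory subunit of complex I, gave a signal of 1950 in PBS local and 3193 in PBS distal, and 2206, 1937, 2004 and 2305 with IL-13, TSLP and in the TGF-beta mice. Distal skin stood alone, 0.70 above PBS local on the log2 scale, and a further probe set of the gene gave 0.61. Uqcrh, the hinge protein of complex III, gave 2881 in PBS local, 4654 in PBS distal, and 3480, 3430, 3664 and 4003 on the same 4 arrays. PBS local was its lowest array, and distal skin was 0.69 above it. Cycs, the mobile electron carrier, gave 5060 in PBS local, 6829 in PBS distal, and 4769, 4501, 5487 and 4915 elsewhere. Its distal value lay above the other 5, 0.43 above PBS local, and its 2 further probe sets gave 0.38 and 0.07. Ndufb6, another accessory subunit of complex I, gave 2965 in PBS local and 4058 in PBS distal, against 2577 to 2990 on the other 4 arrays. That difference of 0.45 rests on the probe set kept, since a further one gave 0.09.

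All 17 complex V subunits were above PBS local in distal skin, with a median of 0.26. They ran from 0.08 for Atp5b, the catalytic beta subunit, to 0.56 for Atp5e, the epsilon subunit of the central stalk. The count rests on the probe sets kept. Further ones of Atp5a1, Atp5pb and Atp5c1 gave -0.02, -0.01 and -0.07, where the kept ones gave 0.31, 0.10 and 0.34. Another of Atp5a1 gave 0.72, and those of Atp5d (0.02), Atp5h, Atp5j2, Atp5k and Atp5o were also above 0. In complex I 27 of 32 were above, with a median of 0.20 and Ndufa10 lowest at -0.14. In complex III 8 of 9 were above (median 0.14), all but the Rieske iron-sulfur protein Uqcrfs1 at -0.02. In complex IV 9 of 10 were above (median 0.21), with Cox7c lowest at -0.12 and a signal of 168 to 221, close to the filter. In complex II 2 of 4 were above 0 (median 0.01), but the further probe sets of Sdha, Sdhc and Sdhd gave 0.22, 0.47 and 0.97 where the kept ones gave -0.10, 0.16 and -0.04, so its place depends on the probe set. Cytosolic ribosomal protein genes were also higher in distal skin, with a median of 0.30 and 13 of 13 above 0, and the part of a shift in such abundant transcripts was not tested. Neutrophil, macrophage and regenerating muscle markers were lower there, with summed signals of 1035, 37785 and 1029 against 5603, 48044 and 9630 in PBS local. Keratinocyte markers were higher (median 0.36, 9 of 9 above 0), and so were glycolysis genes (median 0.28, 15 of 16), beside 48.2% of all genes. Myh2, the myosin of fast oxidative fibres, gave 3538 in distal skin against 12250 in PBS local, and Myh4, that of fast glycolytic fibres, 16139 against 2331. Genes of muscle fibre types thus differed between the sites on these arrays.

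**Figure D4:**
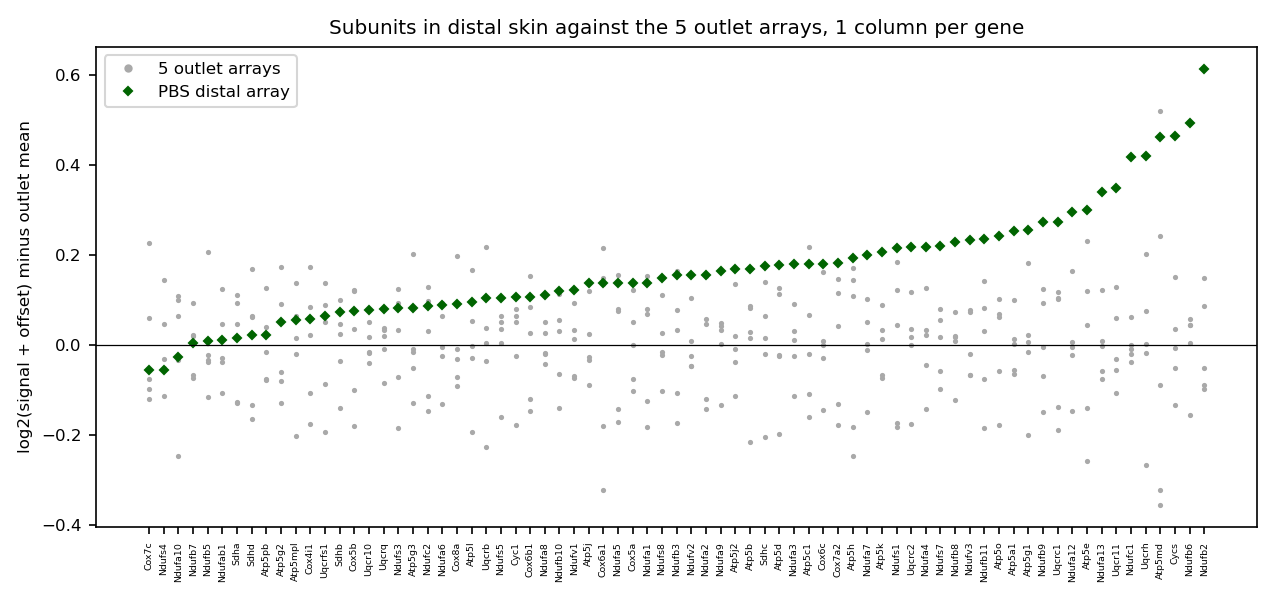
Log2(signal + offset) of each of the 73 subunits minus its mean over the 5 outlet arrays, 1 column per gene, with the PBS distal array as diamonds and the 5 outlet arrays as dots, sorted by the distal value. The diamonds lie above all 5 dots for 44 genes, with Ndufb2 at the right end, and below all 5 for none.

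With TGF-beta, 47 of 73 subunits were above PBS local in both mice, beside 27.9% of all genes, and 10 were below in both, beside 42.4%. Among genes with a mean signal of at least 2000 these shares were 48.0% and 23.6%, closer to those of the subunits. No member was at least 1.5-fold higher in both mice, beside 0.93% of all genes, or lower in both, beside 1.27%. limma called none of the 83 members and 0% of all 7741 genes at an adjusted p under 0.05. At an unadjusted p under 0.05 it listed 3 members, beside 4.59% of all genes, and the lowest adjusted p of a member was 0.864. The fit had 1 residual degree of freedom and borrowed 3.13 from all genes, so a p above the threshold does not show that values were equal.

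The 3 members were Cox7a2l, Atp5h and Cox6a1. Cox7a2l is a factor linked to the joining of complexes III and IV into a supercomplex, a role not measured here. It gave signals of 2432 in PBS local, 3489 in PBS distal, 3419 with IL-13 and 3098 with TSLP. The TGF-beta mice gave 3509 and 3816. PBS local stood alone as the low array, and the TGF-beta difference was 0.58 (SE 0.16; limma's adjusted p = 0.864). Atp5h, a subunit of the complex V side stalk, gave 6090 in PBS local, 6377 with TSLP and 7808 to 8281 on the other 4 arrays, with a TGF-beta difference of 0.39 (SE 0.13). Cox6a1 was at 0.36 (SE 0.13). Further probe sets gave 0.24 for Atp5h and 0.09 for Cox6a1. The other 5 assembly factors were below PBS local with TGF-beta, from -0.28 for Ndufaf4 to -0.07 for Ndufaf3.

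By complex, 15 of 17 complex V subunits were above PBS local in both TGF-beta mice, with a median of 0.15. Atp5md, a small subunit that links ATP synthase dimers, was highest at 0.47, with a signal of 2014 in PBS local, 2967 in PBS distal, 1669 with IL-13, 1709 with TSLP, and 3089 and 2543 in the TGF-beta mice. It was the only subunit of complex V to range by 1.5-fold, with IL-13 and TSLP low and distal skin and TGF-beta high. In complex IV 7 of 10 were above in both mice (median 0.19), in complex III 6 of 9 (median 0.04, Uqcrh highest at 0.41 and the core protein Uqcrc1 lowest at -0.15), and in complex I 19 of 32 (median 0.08, Ndufb9 highest at 0.26 and Ndufs1 lowest at -0.19). The lowest subunits were Cox7c at -0.17 in complex IV and Atp5b at -0.15 in complex V. In complex II none of 4 was above in both mice. Cytosolic ribosomal protein genes had a median of 0.35 with TGF-beta, above that of each complex.

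Mouse 2 was lower than mouse 1 for 59 of 83 members (71.1%), beside 46.7% of all genes and 60.6% of those with a mean signal of at least 2000. The median gap was -0.08 for the subunits present in most cells and -0.76 for the muscle isoforms. These were the 3 of 83 members at least 1.5-fold lower in mouse 2, beside 291 of all 7945 genes, a similar share. Cox6b2, a testis form of complex IV subunit VIb, was the 1 member at least 1.5-fold higher there, beside 354 of all 7945 genes. Its signal was 185 against 101 in mouse 1, near the filter.

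With IL-13 the complexes differed in direction. All 4 complex II genes, which belong to both the respiratory chain and the citric acid cycle, were below PBS local, with a median of -0.21, beside the 60.2% of all genes below 0. Sdha, the flavoprotein, gave a signal of 2580 in PBS local and 2182 with IL-13, and Sdhb, the iron-sulfur protein, 3744 and 3338. The membrane anchors Sdhc and Sdhd gave 1080 and 923, and 1737 and 1513. A further probe set of Sdha gave -0.28, near the -0.24 of the kept one, but those of Sdhc and Sdhd gave -0.00 and 0.94 where the kept ones gave -0.22 and -0.20. The last was dim, at a signal of 134 in PBS local and 283 with IL-13. In TGF-beta mouse 2 Sdha, at 2185, and Sdhd, at 1482, were as low. The 10 core subunits on the electron path of complexes I, II and III, a group formed with these values known, had a median of -0.20 with IL-13 and 7 of 10 below 0, where the other 63 had a median of 0.00 and 31 below 0. Ndufs3 was at -0.31, Ndufs1 at -0.30, Uqcrfs1 at -0.28 and Cyc1, the cytochrome c1 subunit, at -0.23.

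Other subunits were higher with IL-13. Atp5h was at 0.39, Ndufa1, a small membrane subunit of complex I, at 0.34, Cox6a1 at 0.33 and Uqcrh at 0.27. Further probe sets gave 0.11 for Atp5h and 0.04 for Cox6a1, so the size of these differences depends on the one kept. Complex IV as a whole had a median of 0.11 with 7 of 10 above 0. That share was near the 61.6% (median 0.07) of genes with a mean signal of at least 2000. Ndufa10, an accessory subunit of complex I, was the lowest subunit at -0.36, Atp5md was lowest of complex V at -0.27 and Cox7c of complex IV at -0.13. IL-13 was the lowest of the 6 arrays for 28 of the 73 subunits (38.4%), beside 18.1% of all genes and 9.30% of those with a mean signal of at least 2000. TSLP was the lowest for 24 (32.9%), beside 13.8% of all genes and 33.7% of those with a mean signal of at least 2000. With TSLP 7 of 10 complex IV subunits were below PBS local, beside 51.3% of all genes and 61.8% of the bright genes. The widest differences of subunits with TSLP were 0.25 for Uqcrh and -0.23 for Atp5md. Within complex I they ran from 0.14 for Ndufb8 to -0.20 for Ndufb6, and within complex IV from 0.17 for Cox7c to -0.17 for Ndufa4. Uqcrb was lowest of complex III at -0.19 and Atp5l highest of complex V at 0.19. The kind of probe set moved with these values: with IL-13 the 26 subunits read by plain probe sets had a median of -0.08 and the 47 read by probe sets that may share sequence with other transcripts 0.06. In distal skin the same medians were 0.12 and 0.23, and with TGF-beta 0.05 and 0.13.

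Genes around the respiratory chain were followed by lists chosen with these data already described. With IL-13 60.2% of all genes were below 0 (median -0.07), and with TGF-beta 42.4% were below 0 in both mice, which are the shares to read the following counts against. Of the 19 citric acid cycle and pyruvate dehydrogenase genes that passed the filter, 17 were below PBS local with IL-13, with a median of -0.37, and 14 were below it in both TGF-beta mice, with a median of -0.24. Pdk4, the kinase that switches pyruvate dehydrogenase off, differed most, with a signal of 1088 in PBS local, 1726 in PBS distal, 415 with IL-13, 825 with TSLP, and 880 and 611 in the TGF-beta mice. Idh2, the NADP-linked isocitrate dehydrogenase, differed least, from 679 to 825. Of 17 fatty acid oxidation genes 13 were below PBS local with IL-13 (median -0.23). In distal skin 11 were above (median 0.20), beside 48.2% of all genes and 60.2% of those with a mean signal of at least 2000. Acadl, long-chain acyl-CoA dehydrogenase, was at -0.42 with IL-13 and Cpt2, the inner carnitine palmitoyltransferase, at -0.09.

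Of the regulators of mitochondrial gene expression 13 of 18 passed the filter, with medians of -0.20 with IL-13, -0.22 with TGF-beta, -0.07 with TSLP and -0.05 in distal skin. Nrf1, the factor that binds the NRF1 motif, had a signal of 163 to 171 on all 6 arrays, close to the filter. Tfb2m, a mitochondrial transcription factor, was at -0.34 with each of the 3 cytokines and gave 514 in PBS local and 495 in PBS distal. Ppargc1a, the PGC-1 alpha coactivator, stayed below the filter, at 46.7 to 124. The mitochondrial ribosome list had a median of -0.19 with IL-13 (15 of 20 below 0), with Mrpl11 apart at 0.57 and Mrps18a at -0.16. Import genes and carriers were at -0.14 (13 of 17 below 0), where the chaperonin gene Hspe1 was at 0.35 and the phosphate carrier Slc25a3 at -0.05. Of 26 further assembly factors and chaperones 18 were below 0 (median -0.07), near the share and median of all genes. Cox19, a copper-related complex IV factor, was highest in PBS local at 1238 against 707 to 910 elsewhere, while Cox17, a copper chaperone, gave 2352 to 2698.

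Lists outside mitochondria gave the scale of these shifts. Cytosolic ribosomal protein genes were at 0.25 with IL-13 and -0.09 with TSLP, where Rps19, which differed most over the comparisons, was at 0.40 with IL-13 and Rpl4, which differed least, at 0.04. Glycolysis genes had a median of -0.07 with IL-13, spread from -0.89 for Slc2a4, the insulin-responsive glucose carrier of muscle and fat, to 1.28 for Slc2a1, the glucose carrier of most cells, and Pkm was at 0.14. With TGF-beta limma called 0 genes of each of these lists, as of all genes. At an unadjusted p under 0.05 it listed 7 of 13 cytosolic ribosomal protein genes, 0 of 19 citric acid cycle genes and 2 of the 73 subunits.

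**Figure D5:**
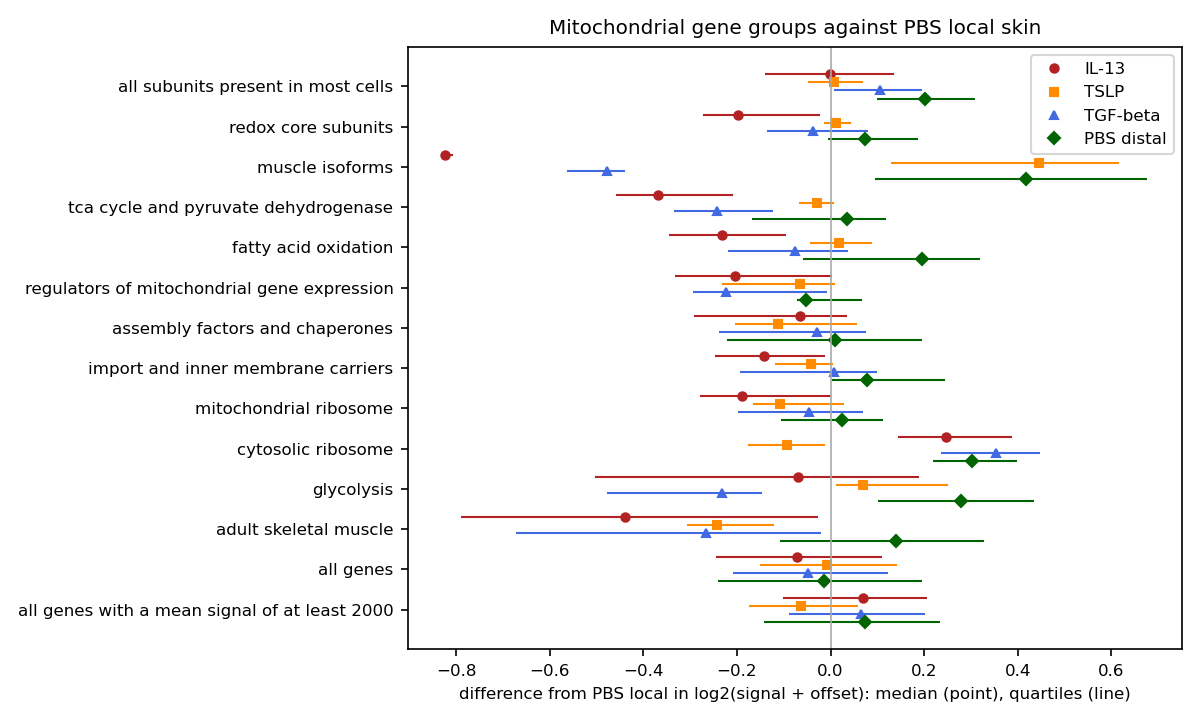
Median (symbol) and quartiles over genes (line) of the difference from the PBS local array in log2(signal + offset), for subunits, muscle isoforms and surrounding gene lists with IL-13 (circles), TSLP (squares), TGF-beta (triangles, mean of 2 mice) and in distal skin (diamonds). The quartiles describe genes and not replicates. The citric acid cycle list lies at -0.37 and the muscle isoforms at -0.82 with IL-13, while the subunits present in most cells lie at -0.00.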

How the data were processed

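RNA of 6 mouse skin samples was read on Affymetrix arrays. The deposited values are MAS5 signals, a linear intensity per probe set, per the submitters' processing notes; version and scaling target are not given in the sources used here. Deposited signals had a trimmed mean (2% at each end) of 500.2 on every array. They were scaled to a common trimmed mean, which changed them very little. Of 22690 probe sets 20380 named 1 gene in the platform annotation, 691 named several, 64 were controls and 1555 are unnamed here; 20351 matched a current RefSeq symbol, giving 12393 genes. For each gene the probe set with the highest mean log2(signal + 27.4) was kept, a plain one for 36 members and one of a shared type for 50.

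Differences were taken from PBS local. TGF-beta was tested with limma 3.58.1 (R 4.3.3; lmFit, eBayes with an intensity trend, Benjamini-Hochberg over 7741 genes), with PBS local assumed to vary like the TGF-beta mice; the script was tested on simulated data. Other comparisons have 1 array a group and no test. The genes named are the muscle isoforms and partners, complex II, Cyc1 and Cycs, the highest and lowest subunit of complexes I, III, IV and V per comparison, the 10 members with the widest range, the most and least different gene of each pathway list, and the members below the filter; others were named after their values were seen. The members and lists were chosen with earlier results of these data known. Scaling, offset, filter, probe set and reference array were varied.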

Additional observations from a re-analysis of the deposited data

How the results depend on the processing

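Of 37 alternative values of the median of the subunits present in most cells, 28 lay within the spread between the TGF-beta mice (0.06) of the value reported, and 9 did not. With PBS distal as the reference the median was -0.18 with IL-13, -0.20 with TSLP and -0.083 with TGF-beta, so the sign of a small shift follows the choice of a single PBS array. With plain probe sets alone it was -0.12 with IL-13, 0.029 with TGF-beta and 0.13 in distal skin. After quantile normalization it was -0.089, 0.014 and 0.13. The median of the 73 subunits with TGF-beta was 0.06 to 0.14 when 1 mouse was left out. The 33 alternative values of the mean of the muscle isoforms lay within the spread between the mice, which was wide (0.53). That count says little, because each isoform had 1 plain probe set above the filter, so filter and probe set settings changed nothing. Leaving out 1 mouse gave -0.89 to -0.13 with TGF-beta, values that lie within that spread by construction. With PBS distal as the reference the TSLP mean was -0.03 rather than 0.35. limma called 0 members with TGF-beta under each alternative run, with lowest adjusted p from 0.231 to 0.902; leaving out a mouse left no residual degree of freedom, so that fit was not run. A further limma run assumed that the single IL-13, TSLP and PBS distal arrays vary as both TGF-beta mice did. With 1 array in each of these groups that cannot be checked, so its p-values and counts are not given. Of 62 further probe sets of the members, the sign matched that of the kept one for 39 with IL-13, 44 with TSLP, 43 with TGF-beta and 52 in distal skin. Differences near 0 therefore have no settled sign, and signals carry no read depth.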
